A study of Mus musculus with 3 samples.

Results

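The 39 genes described here encode glucose transporters, the enzymes of glycolysis, lactate dehydrogenases and lactate transporters, the kinases and subunits of pyruvate dehydrogenase, the mitochondrial pyruvate carrier and a few glycogen enzymes. They were chosen by name, as 39 of the 57010 genes in the deposited table. In 1 case a symbol matched a second row, a short annotated copy of Aldoa with 40, 66 and 73 counts, and the row with more counts was used. The libraries came from MBT2, a mouse bladder cancer cell line, stably transfected with a scramble plasmid, with shAsns#1 or with shAsns#2. These plasmids carry short hairpin RNAs, 2 of which target Asns, the gene of asparagine synthetase. Each condition had 1 library. According to the paper, the RNA-seq served to study how inhibition of asparagine synthetase leads to immune activation. The paper's methods describe lentiviral infection and selection of all cells with puromycin, and no source used here says whether a line was 1 clone or a pool.

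Glycolysis splits glucose into pyruvate. Lactate dehydrogenase turns pyruvate into lactate for export, whereas the pyruvate carrier brings it into mitochondria, where pyruvate dehydrogenase commits it to the citric acid cycle and pyruvate dehydrogenase kinases switch that enzyme off. Many steps have several isoforms. Some of them are induced by hypoxia-inducible factor (HIF), the transcription factor that adapts cells to low oxygen. Partners that were not classed as HIF-inducible are called constitutive here, a name that was not tested. Tumor cells are known for high glycolysis even with oxygen. From textbook knowledge, 24 of the 39 genes were classed as HIF-inducible, and the other 15 were not.

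The libraries held 19326826 (scramble), 19167852 (shAsns#1) and 22915511 (shAsns#2) counts. Levels are given as CPM, the count of a gene as a proportion of the TMM-scaled library, in the order scramble, shAsns#1, shAsns#2 throughout. Levels of different genes are compared only per base of the deposited gene length, as TPM. The target Asns stood at 84.4, 33.5 and 27.8 CPM, and it fell (log2 fold change -1.46, SE 0.15, edgeR adjusted p = 0.0071). Of 17 urothelial and epithelial markers, 6 reached 10 counts in any library, and the summed level of the list was 19.9, 22.2 and 25.0 CPM. Those 6 included Foxa1 (167, 138 and 175 counts), Epcam (69, 61 and 105), Gata3 (47, 83 and 127) and Krt18 (47, 50 and 57). The keratin genes Krt5 and Krt20 and the uroplakin genes Upk1b and Upk3a were at 0 counts throughout. The 5 leukocyte markers summed to 0.482, 0.105 and 0.293 CPM, and Tyrobp, C1qa and Cd3e were at 0. Of 6 fibroblast markers 5 were kept, and their list summed to 268, 260.0 and 286 CPM. Dcn rose (6.97, 18.8 and 25.7 CPM, edgeR adjusted p = 0.018), and the other 4 did not pass, with log2 fold changes of -0.76 for Pdgfrb, -0.74 for Col1a1, 0.02 for Pdgfra and 0.52 for Col1a2. Of 3 mesenchymal markers Fn1 rose (206, 637 and 1041 counts, edgeR adjusted p = 0.0096), and Vim (3668, 2584 and 1951 CPM) and Cdh2 (log2 fold change 0.14) did not pass. Their part in the results was not tested. In bulk libraries such as these, fewer cells of a type and less RNA per cell cannot be told apart.

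Levels spanned a wide range, from the most abundant glycolytic enzymes to isoforms near 0. Together the 39 genes took 1.99% of the scramble counts (95% Clopper-Pearson interval 1.99 to 2.00), then 1.80% (1.80 to 1.81) and 1.46% (1.45 to 1.46) of those in the shAsns libraries. These intervals, and all counting intervals below, cover counting error only and not the variation between cultures. The level per base in scramble was highest for Pkm (pyruvate kinase) at 3871 TPM, followed by Gapdh at 2780, Ldha at 2766, Pgk1 at 2690 and Aldoa at 1828 TPM. With shAsns#2 they stood at 3206, 2096, 1917, 2423 and 1430 TPM. TPM was scaled to the sum of counts per base and not by TMM, so the size of a change between libraries is read from CPM. For Pdhb even the direction differed between scramble and shAsns#2, at 211 and 232 TPM against 174 and 164 CPM. The order of genes by TPM leaves out most enolase reads. In scramble Eno1 stood at 909 TPM, and its copy Eno1b, which is not among the 39 genes, at 2167 TPM. At the other end, Ldhb, Pdk2 and Pdk4 did not reach 10 counts in any library and were not tested. Ldhb had 1, 1 and 0 counts in scramble, shAsns#1 and shAsns#2. Pdk2 and Pdk4 had 0 counts in each library, which allows up to 0.161, 0.158 and 0.126 CPM, from a floor of 3 counts per library.

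**Figure D1:**
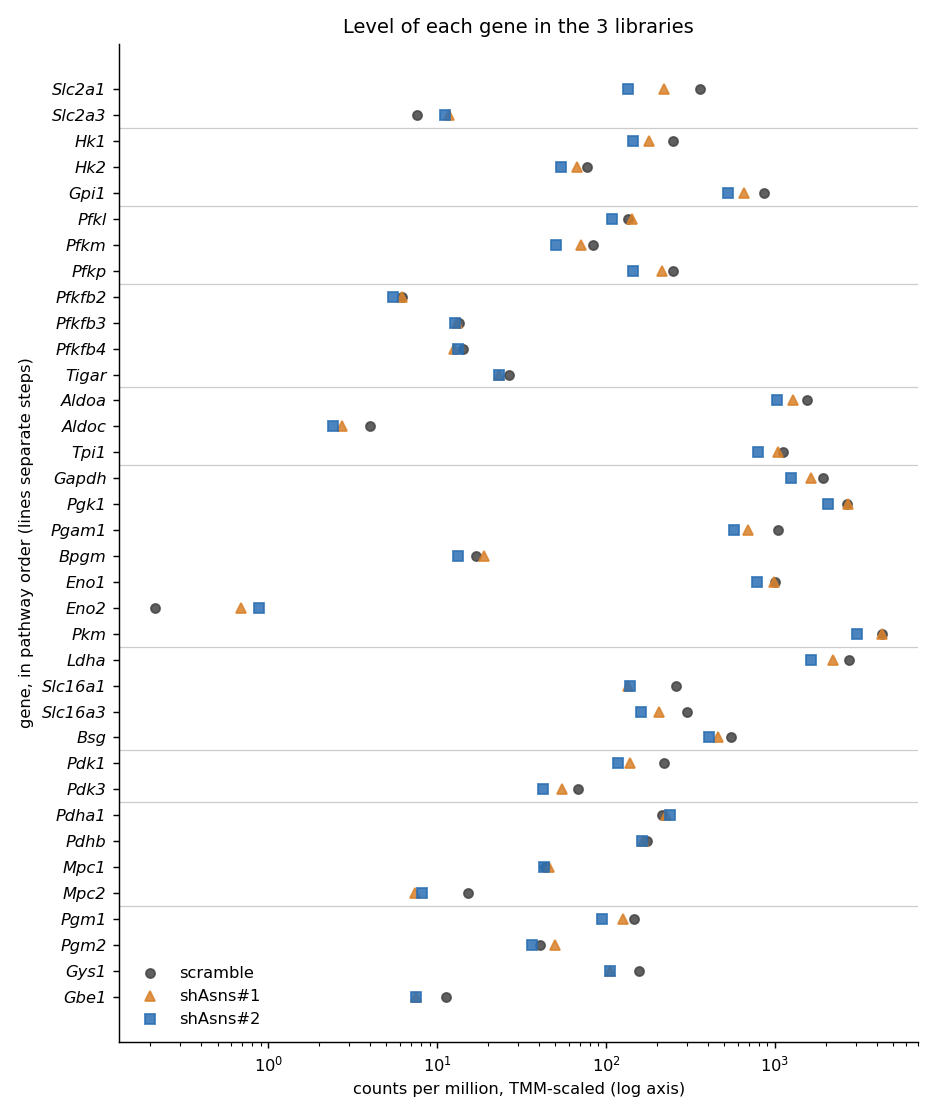
Level of the 36 tested genes, in CPM on a log axis, in pathway order. Each point is 1 library (circle, scramble; triangle, shAsns#1; square, shAsns#2). Pdk1 and Mpc2 in both shAsns libraries lie left of scramble, and Pdha1 and Pdhb nearly coincide in the 3 libraries.

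Among the 36 genes that could be tested, 3 fell with Asns knockdown and 0 rose. The 3 were Slc16a1, which encodes the lactate and pyruvate transporter MCT1, Pdk1, a pyruvate dehydrogenase kinase, and Mpc2, a subunit of the mitochondrial pyruvate carrier. They passed edgeR's quasi-likelihood test, in which both shAsns libraries stood against scramble, at an adjusted p under 0.05 over all 14003 genes kept. The spread in that test came from the shAsns libraries alone, and scramble was taken to vary as they did. That spread was pooled in part over all genes kept, so the SE of a gene does not reflect its own spread alone. The 3 genes were 8.33% of the members, and of all genes tested 1.51% were called lower. The share called higher was 1.14% of all genes. At an unadjusted p under 0.05, 12 members were lower (10.7% of all genes) and 1 was higher (9.11% of all genes). DESeq2 called 4 members lower (Slc16a1, Pdk1, Slc16a3 and Pgam1) and 0 higher, and limma-voom called 1 lower and 0 higher. The shares of all genes called by DESeq2 and limma-voom are not given here.

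Single libraries were then compared, with a ratio of 1.5-fold as the mark and no p-value, since each side had 1 library. With shAsns#1, 5 of the 36 genes lay below scramble by more than 1.5-fold (13.9%), where 9.03% of all genes did. With shAsns#2, 16 of the 36 did (44.4%), where 10.8% of all genes did. Above scramble by that ratio were 2 genes with shAsns#1 (9.91% of all genes) and 1 with shAsns#2 (11.9% of all genes). Regardless of size, 27 genes were below scramble and 9 above with shAsns#1 (49.9% and 50.0% of all genes), and 33 were below and 3 above with shAsns#2 (50.4% and 49.6% of all genes). The median log2 ratio of the 36 genes was -0.22 with shAsns#1 and -0.54 with shAsns#2, while the median over all genes was 0.00 in each case. Over the 1401 genes with the most counts it was -0.02 and -0.09. Both comparisons used the same scramble library, so whatever is particular to that library enters each of them. The median was -0.24 and -0.58 in the HIF-inducible class, with 24 genes, and -0.14 and -0.28 in the other class, with 12 genes.

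**Figure D2:**
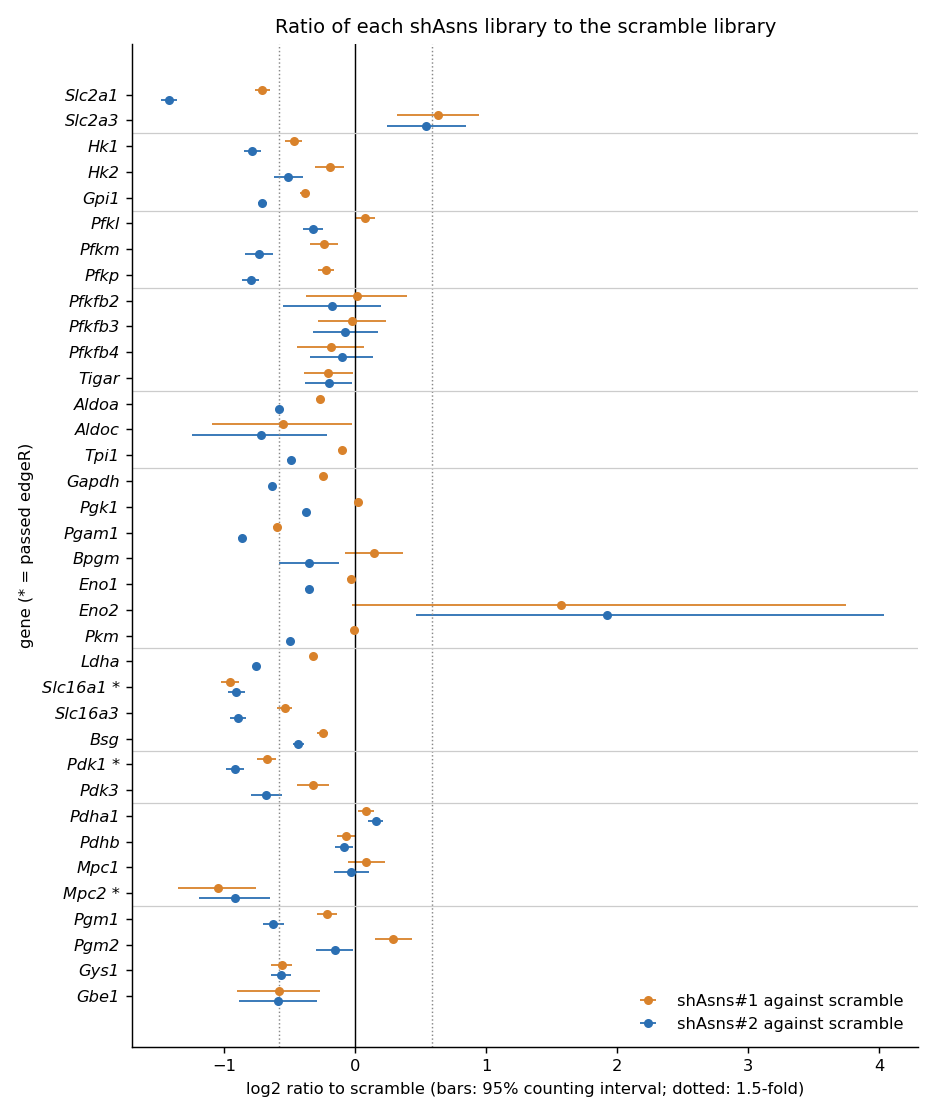
Log2 ratio of each shAsns library to scramble for the 36 genes, in pathway order. Points are single libraries, bars are 95% counting intervals, dotted lines mark 1.5-fold, and an asterisk marks the 3 genes that passed edgeR. With shAsns#2 16 genes lie left of the left dotted line, against 5 with shAsns#1.

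Slc16a1 (ENSMUSG00000032902) lies on chromosome 3 from 104638668 to 104658462 on the plus strand in GRCm38, as annotated by GENCODE M21. It stood at 259.5, 134 and 138 CPM. The shAsns libraries lay close together and below scramble, with log2 ratios of -0.95 (95% counting interval -1.02 to -0.88) and -0.91 (-0.97 to -0.84). The log2 fold change was -0.93 (SE 0.13, edgeR adjusted p = 0.018), and it passed under each alternative tried, at adjusted p-values of at most 0.031 (limma-voom). Slc16a3, which encodes MCT4, the other proton-coupled lactate transporter measured and a HIF target, stood at 301, 207 and 162 CPM (log2 fold change -0.71, SE 0.18, edgeR adjusted p = 0.082). With DESeq2 it passed (adjusted p = 0.031). Bsg encodes basigin, the chaperone that carries both transporters to the cell surface. It stood at 547, 460.5 and 405 CPM, with log2 ratios of -0.25 and -0.43 (edgeR adjusted p = 0.32).

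Pdk1 (ENSMUSG00000006494) lies on chromosome 2 from 71873224 to 71903858 on the plus strand. It stood at 221, 138.5 and 117 CPM, with scramble the highest and log2 ratios of -0.68 (95% counting interval -0.75 to -0.61) and -0.92 (-0.99 to -0.85). The log2 fold change was -0.79 (SE 0.15, edgeR adjusted p = 0.040). It did not pass when DESeq2 size factors scaled the libraries (adjusted p = 0.058, edgeR) or by limma-voom (adjusted p = 0.066). Pdk3, the other kinase gene with counts, stood at 68.0, 54.4 and 42.5 CPM (log2 fold change -0.49, SE 0.17, edgeR adjusted p = 0.17). Per base, Pdk1 made up 57.0% of the kinase transcripts in scramble (95% interval 55.5 to 58.6), then 50.9% (49.1 to 52.8) and 52.9% (51.1 to 54.7) in the shAsns libraries. The intervals of the shAsns libraries overlap each other and not that of scramble.

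Mpc2 (ENSMUSG00000026568) lies on chromosome 1 from 165460637 to 165481214 on the plus strand. It had 285, 140 and 193 counts, or 15.3, 7.37 and 8.08 CPM. Scramble was the highest, and the shAsns libraries lay close together, with log2 ratios of -1.05 (95% counting interval -1.35 to -0.76) and -0.92 (-1.19 to -0.65). The log2 fold change was -0.98 (SE 0.19, edgeR adjusted p = 0.043). It did not pass with DESeq2 size factors (adjusted p = 0.065, edgeR), by limma-voom (adjusted p = 0.069) or by DESeq2 (adjusted p = 0.15). Its partner Mpc1, with which it forms the working carrier, stood at 43.5, 46.2 and 42.6 CPM (log2 fold change 0.03, SE 0.14, edgeR adjusted p = 0.94). Per base, Mpc2 was 24.8% of the carrier transcripts in scramble (95% interval 22.3 to 27.4), then 13.0% (11.1 to 15.2) and 15.1% (13.2 to 17.2) in the shAsns libraries. Pdha1 and Pdhb encode the subunits of pyruvate dehydrogenase E1. Pdha1 stood at 214, 227 and 239 CPM (log2 fold change 0.12, SE 0.14, edgeR adjusted p = 0.70). Pdhb stood at 174, 166 and 164 CPM (log2 fold change -0.08, SE 0.13, edgeR adjusted p = 0.80). Among the genes of pyruvate entry, only Mpc2 passed edgeR.

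The promoters of the 3 genes that passed edgeR are shown. Of these, Pdk1 was classed as HIF-inducible, and Slc16a1 and Mpc2 were not. A shared cause of their lower levels was not tested. Each run covers 250 bases before to 50 bases after a RefSeq transcription start in GRCm38.p6, on the gene's plus strand, and capitals mark the HIF core motifs ACGTG and GCGTG on either strand. The windows are chr3:104638414-104638713 for Slc16a1, chr2:71872974-71873273 for Pdk1 and chr1:165461010-165461309 for Mpc2. The Mpc2 window lies wholly inside the GENCODE range of the gene, which starts upstream of it at 165460637. It therefore does not cover the bases before that GENCODE start.
Slc16a1: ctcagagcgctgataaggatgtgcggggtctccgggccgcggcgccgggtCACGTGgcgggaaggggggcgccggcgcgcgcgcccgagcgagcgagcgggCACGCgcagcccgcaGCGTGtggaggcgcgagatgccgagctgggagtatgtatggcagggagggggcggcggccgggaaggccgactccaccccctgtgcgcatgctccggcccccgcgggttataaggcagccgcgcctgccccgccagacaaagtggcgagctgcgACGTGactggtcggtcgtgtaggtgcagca
Pdk1: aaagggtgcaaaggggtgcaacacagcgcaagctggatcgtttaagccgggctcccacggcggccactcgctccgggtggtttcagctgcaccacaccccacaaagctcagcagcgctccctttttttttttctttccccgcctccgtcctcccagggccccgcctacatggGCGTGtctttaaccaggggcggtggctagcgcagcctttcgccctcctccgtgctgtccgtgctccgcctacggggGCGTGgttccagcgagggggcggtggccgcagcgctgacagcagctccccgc
Mpc2: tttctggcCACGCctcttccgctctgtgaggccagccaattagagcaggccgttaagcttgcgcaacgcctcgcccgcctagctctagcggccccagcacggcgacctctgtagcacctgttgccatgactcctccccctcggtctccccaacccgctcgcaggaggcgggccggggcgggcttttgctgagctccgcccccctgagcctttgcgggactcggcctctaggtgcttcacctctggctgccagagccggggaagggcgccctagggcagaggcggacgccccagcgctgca
Slc16a1 held 5 matches, and 2 of them were the strands of a single CACGTG, a palindrome that contains ACGTG on each strand. Pdk1 held 2 matches and Mpc2 held 1. Promoters were matched by symbol for 37 of the 39 genes, all but Slc2a3 and Bsg. At least 1 core motif was present in 27 of the 37 (73.0%), in 63.5% of 9758 promoters of genes kept for testing, and in 43.8% of all 27025 promoters. It was present in 16 of 23 promoters of the HIF-inducible class and in 11 of 14 of the other class. A match is a description of these letters and not a site that was shown to be bound.

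Glucose uptake and the upper steps held no called gene. Slc2a1, which encodes the main glucose transporter GLUT1, stood at 359, 219.6 and 134 CPM. Its log2 ratios were -0.71 (95% counting interval -0.76 to -0.65) and -1.42 (-1.48 to -1.36), the second being the lowest among the members. By edgeR the log2 fold change was -1.02 (SE 0.26, adjusted p = 0.083), so it did not pass. Over the alternatives its adjusted p ranged from 9.1e-09 (edgeR with no filter on low counts) to 0.54 (DESeq2), and it also passed edgeR with scaling by total counts alone (adjusted p = 3.5e-05). Slc2a3, which encodes GLUT3 and is also a HIF target, stood at 7.61, 11.8 and 11.1 CPM (edgeR adjusted p = 0.16). Per base, Slc2a3 was 1.72% of the transcripts of the pair in scramble (95% interval 1.45 to 2.02), then 4.23% (3.70 to 4.81) and 6.39% (5.66 to 7.18) in the shAsns libraries. The counts of Slc2a3 were not whole, which was true of 17 of the 39 members.

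Hexokinases trap glucose as glucose-6-phosphate. Hk1, the constitutive isoform, stood at 249, 179 and 144 CPM (log2 fold change -0.62, SE 0.17, edgeR adjusted p = 0.098). Hk2, the HIF-inducible isoform, stood at 77.4, 67.7 and 54.4 CPM (log2 fold change -0.35, SE 0.16, edgeR adjusted p = 0.28). In both genes the order was scramble, shAsns#1, shAsns#2 from high to low. Gpi1, the next enzyme, stood at 857, 657 and 524 CPM (edgeR adjusted p = 0.19). The committed step, phosphofructokinase-1, has 3 genes. Pfkp stood at 250.1, 214 and 144 CPM, and Pfkm at 84.1, 71.3 and 50.5 CPM. Pfkl stood at 135, 143 and 108 CPM, with log2 ratios of 0.07 (95% counting interval including 0) and -0.32 (-0.40 to -0.24). Pfkm overlaps Senp1 on the opposite strand (1246, 1412 and 1622 counts), and Pfkp overlaps Pitrm1 (4310, 5659 and 6596 counts). No source used here says whether the counting used strand, so reads of these partners cannot be told apart, also in the isoform differences that use these genes. None of the 3 passed edgeR, with log2 fold changes of -0.48 for Pfkp (SE 0.22), -0.47 for Pfkm (SE 0.20) and -0.11 for Pfkl (SE 0.18) and adjusted p-values of 0.28, 0.24 and 0.78.

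Genes that set the level of fructose-2,6-bisphosphate, the activator of phosphofructokinase-1, held no called gene. Pfkfb2 stood at 6.16, 6.21 and 5.44 CPM, Pfkfb3 at 13.4, 13.2 and 12.7 CPM, and Pfkfb4 at 14.3, 12.5 and 13.3 CPM. All counting intervals of the ratios of these 3 genes to scramble included 0, and the edgeR log2 fold changes were -0.08 (SE 0.25), -0.05 (SE 0.17) and -0.14 (SE 0.17), with adjusted p-values of 0.89, 0.91 and 0.70. Tigar, a phosphatase that acts against these kinases, stood at 26.7, 23.2 and 23.2 CPM, and its log2 ratios of -0.20 (95% counting interval -0.39 to -0.02) and -0.20 (-0.38 to -0.03) excluded 0 in counting error (edgeR adjusted p = 0.49). With 115 to 130 counts per library, Pfkfb2 had the widest intervals of the 3 Pfkfb genes, from -0.37 to 0.39 with shAsns#1 and from -0.55 to 0.19 with shAsns#2. Pfkfb2 overlaps Yod1 on the opposite strand, which had more counts (293, 236 and 359). The limit on strand given for Pfkm and Pfkp holds for Pfkfb2 too, also in the isoform differences that use it.

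The abundant enzymes of the lower pathway passed edgeR in no case. With shAsns#1, Pkm, Pgk1 (phosphoglycerate kinase) and Eno1 (enolase) had log2 ratios near 0, at -0.01, 0.02 and -0.03. With shAsns#2 the ratios were -0.50, -0.38 and -0.35. Aldoa (aldolase) had log2 ratios of -0.27 and -0.58, Tpi1 (triosephosphate isomerase) -0.10 and -0.49, and Gapdh -0.25 and -0.63. Pgam1, which encodes phosphoglycerate mutase, differed more. It stood at 1046, 691 and 576 CPM (log2 fold change -0.72, SE 0.19, edgeR adjusted p = 0.098), and it passed by DESeq2 (adjusted p = 0.0083). Ldha stood at 2738, 2195 and 1623 CPM, with log2 ratios of -0.32 and -0.75 (log2 fold change -0.52, SE 0.25, edgeR adjusted p = 0.30). At the foot of the range, Aldoc stood at 4.02, 2.74 and 2.43 CPM, and Bpgm at 17.0, 18.8 and 13.4 CPM. Eno2, the neuronal enolase, had only 4, 13 and 21 counts. Its log2 ratios were 1.57 (95% counting interval -0.02 to 3.75) and 1.92 (0.47 to 4.04), and edgeR did not call it (adjusted p = 0.26).

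Most enolase reads were counted on another row. Eno1b, described in the deposited table as a retrotransposed copy of enolase, had 38534, 38042 and 32512 counts, against 18747, 18658 and 18780 on Eno1. Both rows held counts that were not whole, and whether they shared reads with each other was not tested. Eno1 held 32.7% of the sum in scramble (95% Clopper-Pearson interval 32.3 to 33.1), then 32.9% (32.5 to 33.3) and 36.6% (36.2 to 37.0) in the shAsns libraries. The summed level was 3070.1, 2984 and 2147 CPM, that is log2 ratios of -0.04 and -0.52. With shAsns#2 the ratio of Eno1 alone was -0.35. With the rows joined, edgeR gave a log2 fold change of -0.26 (SE 0.27, adjusted p = 0.64). Apart from Eno1b and the second Aldoa row, the rows described as pseudogenes or related sequences of members held at most 32 counts per library and member.

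**Figure D3:**
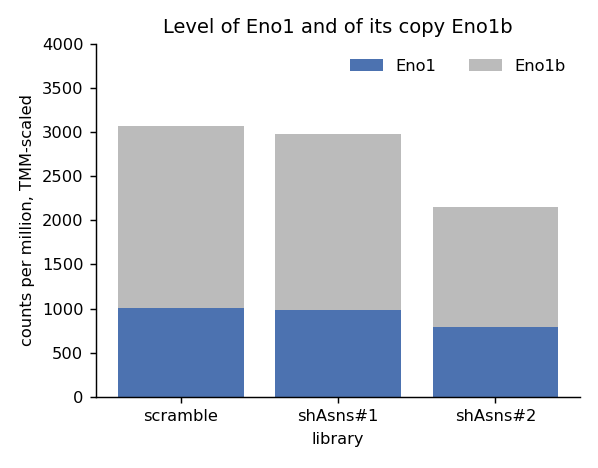
Level of Eno1 (lower part of each bar) and of its copy Eno1b (upper part) in the 3 libraries, in CPM. Bars start at 0 and show 1 library each. The bars sum to 3070.1, 2984 and 2147 CPM.

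Of the glycogen enzymes, 0 of 4 passed edgeR. Gys1, glycogen synthase and a HIF target, stood at 156, 105 and 105 CPM (log2 fold change -0.57, SE 0.13, edgeR adjusted p = 0.064), and it passed edgeR with at least 10 counts required in every library (adjusted p = 0.044). Gys1 overlaps Ruvbl2 on the opposite strand, with 3553, 4454 and 5608 counts, with the same limit on strand. Gbe1, the branching enzyme, stood at 11.2, 7.47 and 7.45 CPM (edgeR adjusted p = 0.16). Pgm1 (ENSMUSG00000025791), a phosphoglucomutase, stood at 145, 125 and 94.2 CPM (log2 fold change -0.41, SE 0.18, edgeR adjusted p = 0.26). Pgm2 (ENSMUSG00000029171) stood at 40.7, 49.9 and 36.5 CPM (log2 fold change 0.08, SE 0.20, edgeR adjusted p = 0.86).

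HIF-inducible isoforms were compared with constitutive isoforms of the same step within the same libraries, where library scaling cancels. Of 10 pairs set out, 7 could be measured, because Ldhb and Pdk2 were below 10 counts in every library. The inducible isoform had the lower ratio to scramble in 3 of the 7 pairs with shAsns#1 and in 2 of the 7 with shAsns#2. Hk2 minus Hk1 was 0.28 on the log2 scale for each hairpin (95% counting interval 0.15 to 0.40 both times). Pfkl minus Pfkm was 0.31 (0.18 to 0.45) and 0.41 (0.28 to 0.55). In these pairs the constitutive isoform had the lower ratio. The reverse was measured for Pgm1 and Pgm2, where Pgm1 minus Pgm2 was -0.51 (-0.67 to -0.35) and -0.47 (-0.63 to -0.30). Whether Pgm2 serves the same step as Pgm1 in these cells was not tested. The lactate transporters differed between hairpins. For shAsns#1 Slc16a3 minus Slc16a1 was 0.42 (0.32 to 0.51), and for shAsns#2 it was 0.01 (-0.07 to 0.10). The intervals of Pfkp minus Pfkm (0.02 and -0.06) and of Pfkfb3 and Pfkfb4 minus Pfkfb2 included 0 with each hairpin. With 3 libraries a two-sided exact permutation test cannot go below p = 0.33, so the differences were not tested beyond counting error. The pairs of 1 step share a constitutive isoform in 2 cases, Pfkm and Pfkfb2.

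**Figure D4:**
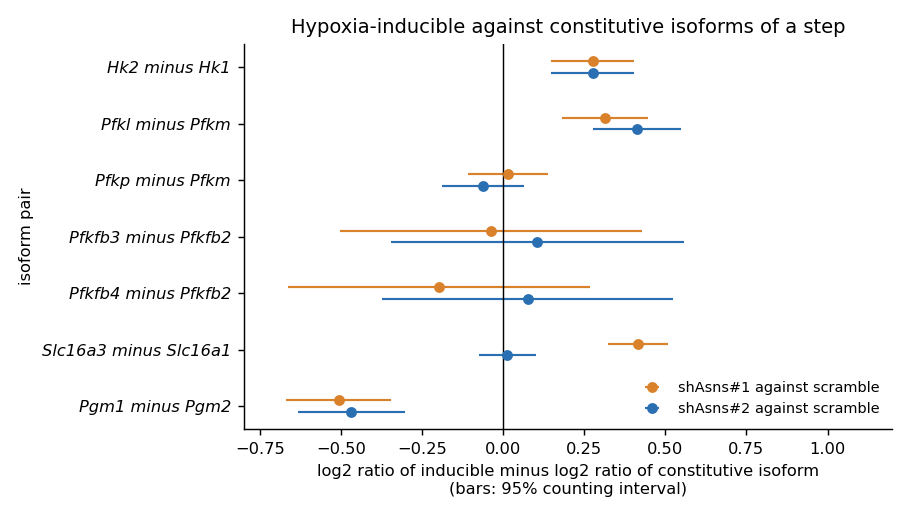
Log2 ratio to scramble of the HIF-inducible isoform minus that of the constitutive isoform, for the 7 pairs that could be measured. Points are single shAsns libraries and bars are 95% counting intervals. Hk2 minus Hk1 and Pfkl minus Pfkm lie right of 0, and Pgm1 minus Pgm2 lies left of 0, with both hairpins.

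The share of each isoform in its step was also measured. Hk2 was 17.9% of the hexokinase transcripts per base in scramble (95% interval 17.0 to 18.8), then 20.9% (19.8 to 21.9) and 20.8% (19.8 to 21.9) in the shAsns libraries. Slc16a1 was 30.7% of the pair of lactate transporters in scramble (29.9 to 31.5), then 24.9% (24.0 to 25.9) and 30.5% (29.5 to 31.5) in the shAsns libraries. Pgm2 was 23.0% of the pair of Pgm1 and Pgm2 in scramble (21.6 to 24.5), then 29.8% (28.2 to 31.4) and 29.2% (27.6 to 30.9) in the shAsns libraries. Pfkp was the largest share of phosphofructokinase-1 in every library, at 58.5%, 55.7% and 53.3%. Lactate dehydrogenase and aldolase were nearly single-gene steps, since Aldoc was 0.145% of the aldolase pair per base in scramble and Ldhb had 1 count against 51090 of Ldha.

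**Figure D5:**
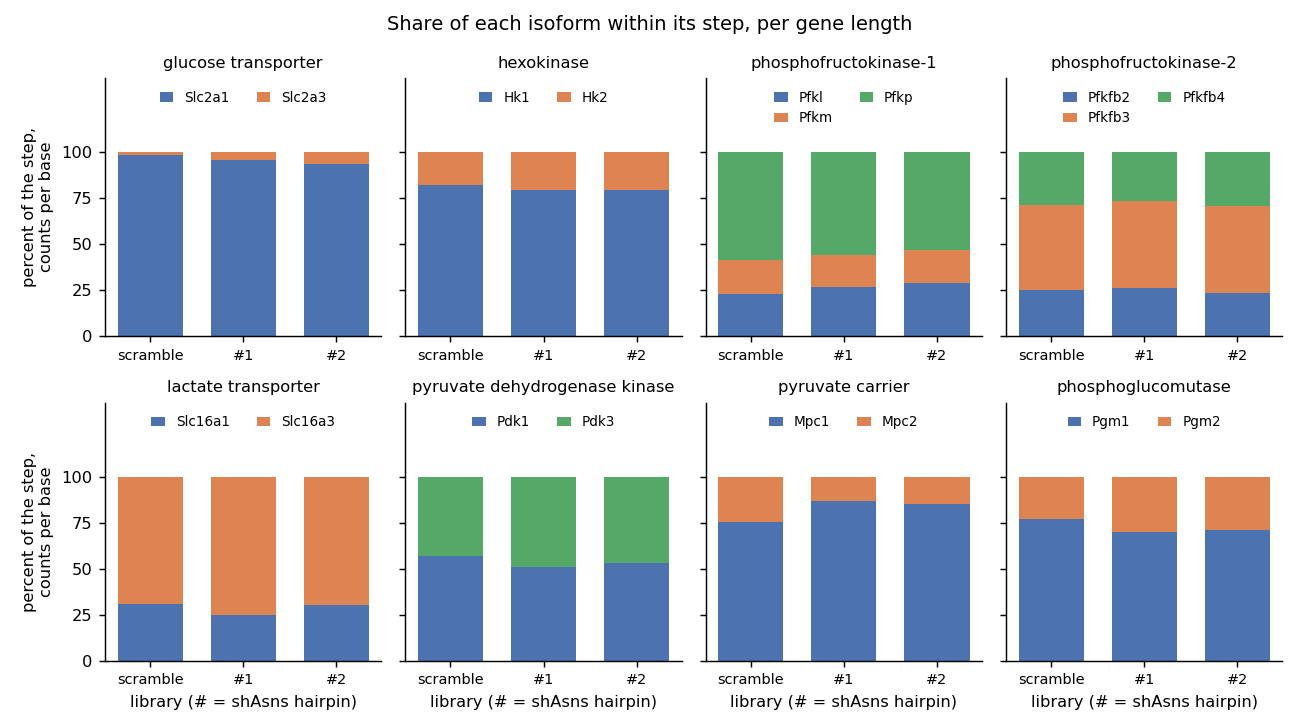
Share of each isoform within its step, per base of gene length, in percent, in scramble and with shAsns#1 (#1) and shAsns#2 (#2). Each bar is 1 library and adds to 100%. Mpc2 takes 24.8%, 13.0% and 15.1% of the pyruvate carrier pair, and Slc2a3 takes 1.72%, 4.23% and 6.39% of the glucose transporter pair.

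The shAsns libraries also differed from each other, in a comparison that does not involve scramble. Of the 36 genes, 30 were lower with shAsns#2 than with shAsns#1 and 6 were higher, where 50.0% and 49.9% of all genes were. Their median log2 ratio of shAsns#2 to shAsns#1 was -0.31, while that of all genes was 0.00 with quartiles of -0.17 and 0.16. Only Slc2a1 was lower by more than 1.5-fold, at -0.71 (95% counting interval -0.78 to -0.65), where 5.26% of all genes were, and no member was higher by that ratio, where 6.58% of all genes were. Pfkp stood at -0.57, Pfkm at -0.50, Pkm at -0.49 and Ldha at -0.44. In contrast, Slc16a1 (0.05, -0.03 to 0.12), Mpc2 (0.13, -0.19 to 0.46), Gys1 (-0.01, -0.09 to 0.08) and Tigar (0.00, -0.18 to 0.19) lay near 0. Asns itself stood at -0.27. Each side had 1 library, so the hairpin and the culture cannot be told apart.

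Neighbouring pathways were described by further gene lists. Of all genes tested, edgeR called 1.51% lower and 1.14% higher. Of the other genes of glycolysis, glucose transport and gluconeogenesis, 15 of 37 reached the count minimum. Adpgk, an ADP-dependent glucokinase, rose from 33.0 CPM in scramble to 55.1 and 55.6 (log2 fold change 0.75, SE 0.14, edgeR adjusted p = 0.039), and no gene of that list fell. None of the 17 glycogen genes, 12 pentose phosphate genes or 26 genes of pyruvate dehydrogenase and the citric acid cycle that were kept passed edgeR in either direction. Their median log2 ratios with shAsns#1 and shAsns#2 were 0.10 and 0.27, 0.14 and 0.01, and 0.06 and -0.06. Among 5 glucose-responsive genes kept, Thbs1 rose (log2 fold change 2.50, SE 0.21, edgeR adjusted p = 0.0031). Of 22 HIF regulators and non-metabolic HIF targets kept, 11 fell (1.51% of all genes did) and none rose (1.14% of all genes did). The median log2 ratios of the 22 were -0.61 and -0.60. Ankrd37 and the vasodilator gene Adm had log2 fold changes of -1.76 (edgeR adjusted p = 0.020) and -1.66 (edgeR adjusted p = 0.024). The next by size were Bnip3 (-1.23), Bhlhe40 (-1.14), Ddit4 (-1.06) and Ak4 (-1.02), followed by Egln3, Egln1, Ndrg1, Ero1l and Mxi1 at -0.81 to -0.62, all at edgeR adjusted p-values from 0.018 to 0.0499. Hif1a, the oxygen-regulated subunit of HIF, stood at 354, 341 and 307 CPM (edgeR adjusted p = 0.71). The part of these genes in the values of the 36 members was not tested.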

How the data were processed

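RNA-seq libraries were made from 3 MBT2 lines, 1 from each. The authors deposited unscaled expected counts (estimated counts) by Ensembl ID, of which 32.6 to 33.0% of the values above 0 were not whole (tolerance 1e-09), with a gene length that has no stated definition. The submitters' notes on processing name Bowtie 0.12.2 without saying what it did. No source used here gives the counter, the build or the annotation. Symbols matched 52029 of 57010 rows by Ensembl ID.

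Counts were rounded, and TMM scaling used the 14003 genes that reached 10 counts in any library. Log2 ratios used a prior count of 0.5, and their 95% intervals are exact conditional binomial intervals. The intervals of isoform differences are exact conditional intervals of the odds ratio, and those of shares are Clopper-Pearson intervals. Knockdown was tested against scramble in edgeR 4.0.16 (glmQLFit, glmQLFTest, Benjamini-Hochberg), where 1 residual degree of freedom was left and the biological coefficient of variation came to 11.6%. The SE is the size of the log2 coefficient divided by the square root of F. The edgeR step was also run on simulated data, with an outcome that is not given here. All simulated libraries varied alike, so that run could not check whether scramble varies as the shAsns libraries do. DESeq2 1.42.0, limma 3.58.1 (voom), other scalings, filters, folds and prior counts were alternatives. R 4.3.3, Python 3.11.15, scipy 1.17.1 and pandas 2.3.3 were used.

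The members, lists, isoform pairs and HIF classes were chosen with earlier results of these data known. All members could be named. Full values were given for those past edgeR and for both members of each isoform pair, and of other lists the genes past edgeR were named, with the fold changes of up to 6 per list in full and the rest as a range. Members and listed genes singled out beyond that were chosen after their values were seen. The p-values rest on the spread between the shAsns libraries, pooled in part over all genes kept. For these libraries no source says whether the cultures were handled separately.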

Additional observations from a re-analysis of the deposited data

How the results depend on the processing

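Against 3 members lower by edgeR, 1 was lower with DESeq2 size factors, 8 with total counts, 13 with no filter on low counts, 8 at an adjusted p under 0.1 and 1 by limma-voom. The shares of all genes called under these alternatives, or past a 2-fold ratio, are not given here. Whether the counts of members under them differ from those shares is therefore left unsaid. In the other gene lists, markers of cell types left out, edgeR called 11 genes lower and 2 higher. Lower were 5 with DESeq2 size factors, 17 with no filter and 4 by limma-voom. Higher were 1 with DESeq2 size factors, 7 with total counts, 5 with no filter and 1 by limma-voom. The cause was not tested. Scaling by total counts put the median of all genes at 0.11 with shAsns#2 and 0.04 with shAsns#1, and that of the members at -0.43 and -0.18 (log2 ratios). The log2 fold change of Pfkfb3 then reversed to 0.025. At a 2-fold ratio, 1 member was lower with shAsns#1, 1 with shAsns#2 and 0 in shAsns#2 against shAsns#1, and 1 was higher with shAsns#1. With at least 10 counts in every library, 1 member was higher by 1.5-fold with shAsns#1 and 0 with shAsns#2, because Eno2 was no longer kept. With total counts 2 were higher with shAsns#2, and with no filter 2 were lower in shAsns#2 against shAsns#1. The 14 isoform differences kept their direction and moved by less than their counting intervals with a prior count of 2 and with unrounded counts. Without 1 shAsns library there is no residual degree of freedom, so the log2 ratio of the remaining hairpin is a value with no test. No paired analysis was possible because the single scramble library can share at most 1 number with the shAsns libraries.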
